A study of Homo sapiens with 10 samples.

Results

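BCL6 and LPP are neighbouring genes on the long arm of human chromosome 3, and 34 of the 67387 annotated H3K27ac regions of the series carry one of these symbols, 11 of them BCL6 and 23 LPP. They were chosen by symbol alone, out of 169637 counted regions of 502 bp, and all 34 passed the filter on low counts. H3K27ac, a histone acetylation found on active promoters and enhancers, was mapped by ChIP-seq (chromatin immunoprecipitation followed by sequencing) in H1975, an established EGFR-mutant lung adenocarcinoma line. In the group called osimertinib DTP (a term used for drug-tolerant persister cells), cells received osimertinib, an EGFR inhibitor, at 500 nM for 24 days. In the sequential combination, called osimertinib DTP + AZD5153, cells received osimertinib at 500 nM for 21 days and then AZD5153, an inhibitor of BET bromodomain proteins, at 150 nM for 3 days, and the labels do not say whether osimertinib was continued. The DMSO controls were kept drug-free for 21 days and then given DMSO for 3 days. Each group had 3 replicate libraries of this 1 cell line, and the labels do not say what the replicate number marks. In addition, 1 pooled input library was sequenced without immunoprecipitation.

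BCL6 is a transcriptional repressor with a BTB domain and zinc fingers, best known for holding B cells in the germinal centre state. It recruits corepressors such as BCOR, binds DNA elements that resemble STAT sites and is known to repress its own gene. LPP is a LIM domain protein of the zyxin family that sits at focal adhesions and cell-cell contacts, and its long gene hosts the microRNA gene MIR28. Both genes are translocation partners in lymphoma and other tumours, and the stretch between them is known to hold B cell enhancers.

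In RefSeq (GRCh38.p14, the assembly that hg38 names) BCL6 spans chr3:187721377-187745468 on the minus strand, LPP spans chr3:188153021-188890671 on the plus strand, and 407.6 kb lie between them. Of the RefSeq promoter windows of these genes around a start, 1 of BCL6 lay whole inside a counted region and 1 of LPP shared 171 bases with the region of highest mean count among its promoter regions. Both are shown because they anchor the promoter values that follow. Capitals mark matches to TTCNNNGAA, the palindrome that STAT factors and BCL6 bind, in the first, at chr3:187745419-187745718 (minus strand), and to TGACGTCA, the cyclic AMP response element, in the second, at chr3:188153648-188153947 (plus strand).
BCL6 promoter: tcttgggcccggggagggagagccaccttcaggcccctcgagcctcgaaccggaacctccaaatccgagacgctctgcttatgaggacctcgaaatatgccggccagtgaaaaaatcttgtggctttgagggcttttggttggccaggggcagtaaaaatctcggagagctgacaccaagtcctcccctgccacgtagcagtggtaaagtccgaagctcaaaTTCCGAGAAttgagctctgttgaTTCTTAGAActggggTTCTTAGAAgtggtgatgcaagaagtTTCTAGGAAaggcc
LPP promoter: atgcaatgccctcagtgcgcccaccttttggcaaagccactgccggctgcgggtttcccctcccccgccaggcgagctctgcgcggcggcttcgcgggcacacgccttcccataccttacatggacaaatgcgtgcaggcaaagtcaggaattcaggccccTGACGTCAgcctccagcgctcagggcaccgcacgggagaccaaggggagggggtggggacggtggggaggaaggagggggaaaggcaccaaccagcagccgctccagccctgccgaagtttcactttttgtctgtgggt

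The BCL6 window held 4 matches to TTCNNNGAA, read on both strands, starting at positions -28, -5, 11 and 37, where position 1 is the first transcribed base. At least 1 match was present in 7.66% of the 35116 RefSeq promoter windows of this length, and 4 or more in 7 windows. The LPP window held 1 match to TGACGTCA, which 1.85% of all windows contain. A search for TGANTCA, the AP-1 site, found no match in either printed window, against 7.71% of all windows. Among the windows not printed, that of BCL6 starting at chr3:187736452 held a match. Those of LPP starting at chr3:188212462, chr3:188568755 and chr3:188584088 did so too, and the remaining LPP windows did not. Matches are descriptions of the letters and not measured binding sites, and the motifs did not overlap each other.

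Total counts over all regions were 6263443 to 10463351 per H3K27ac library and 1870885 for the input. Replicate 3 of osimertinib DTP + AZD5153 had the lowest total and stood apart, with Spearman correlations of 0.445 and 0.367 with its own replicates against 0.805 to 0.893 within the other pairs of replicates. Of its counts 52.9% fell in annotated promoter regions (29.3% to 50.8% in the other 8 libraries). All groups share 1 estimate of the spread, so it bears on every comparison, and calls and values without it are given beside the results. All 8 epithelial markers examined had a promoter region, at means of 8.96 to 62.4 CPM (counts scaled to library size) in DMSO, and 7 of 8 lymphoid markers had none, CD79A being the exception at 4.14 CPM in DMSO and 0.520 CPM with osimertinib alone. Fibroblast markers had a promoter region in 4 of 6 genes, and their summed level went from 25.6 CPM in DMSO to 67.7 with osimertinib alone and 84.5 in the combination. The epithelial sum was also higher in both treated groups, at 270 CPM in DMSO, 355 with osimertinib alone and 336 in the combination. With osimertinib alone all 8 epithelial means were above DMSO. In the combination CDH1 (16.2 CPM in DMSO, 13.3 in the combination) and CLDN4 (54.0 and 44.1) were below DMSO, and the other epithelial markers were above it. The combination values include its replicate 3. The part of these shifts in the results was not tested.

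At BCL6, H3K27ac was higher in both treated groups than in DMSO. The 11 regions together held 1018, 877 and 699 counts in DMSO replicates 1 to 3. Osimertinib DTP held 1536, 1690 and 1367 counts, and the combination 1885, 1640 and 1218. All 6 treated libraries lay above the 3 DMSO libraries. After scaling by TMM (trimmed mean of M values) over all gene sums the level was 91.7 ± 16 CPM in DMSO, 166 ± 22.6 with osimertinib alone and 188 ± 14.8 in the combination (mean ± SD, n = 3 each). By edgeR's quasi-likelihood test, adjusted with Benjamini-Hochberg over all 15633 symbols, the log2 fold change of BCL6 over DMSO was 0.85 ± 0.22 (SE, adjusted p = 0.0355) in osimertinib DTP and 1.03 ± 0.22 (adjusted p = 0.0119) in the combination. In these comparisons 4.82% and 8.21% of all symbols were called higher and 6.37% and 9.7% lower.

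The rise in osimertinib DTP lay near the threshold. With the replicate number as a block, the log2 fold change was 0.86 with an adjusted p of 0.0546. Leaving out 1 library at a time ended the call in 5 of 9 fits, those without DMSO replicate 2 or 3, osimertinib DTP replicate 1 or 3, or combination replicate 1, with adjusted p-values of 0.053 to 0.161 and log2 fold changes of 0.79 to 0.85. For the combination the call ended without DMSO replicate 2 (0.96, adjusted p = 0.0522) or DMSO replicate 3 (0.98, adjusted p = 0.0679). Without combination replicate 3 both calls stood, at 0.90 (adjusted p = 0.00538) and 1.08 (adjusted p = 0.00291).

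LPP as a whole showed no such difference. Its 23 regions summed to 1763, 2124 and 1778 counts in DMSO, 2422, 1850 and 2208 in the osimertinib DTP libraries, and 2553, 2168 and 594 in the combination. The groups overlapped, and combination replicate 3 was the lowest of the 9 libraries. Levels were 200 ± 13.4 CPM in DMSO, 241 ± 76.6 with osimertinib alone and 202 ± 103 in the combination (SD, n = 3 each), the last being 261 ± 17.2 CPM (n = 2) without its replicate 3. The log2 fold change over DMSO was 0.27 ± 0.42 (adjusted p = 0.768) in osimertinib DTP and 0.014 ± 0.42 (adjusted p = 0.987) in the combination by the same edgeR test, the latter 0.37 ± 0.25 (adjusted p = 0.286) without combination replicate 3. The latter turned to -0.036 with library-size scaling and to -0.089 with a loess offset.

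**Figure D1:**
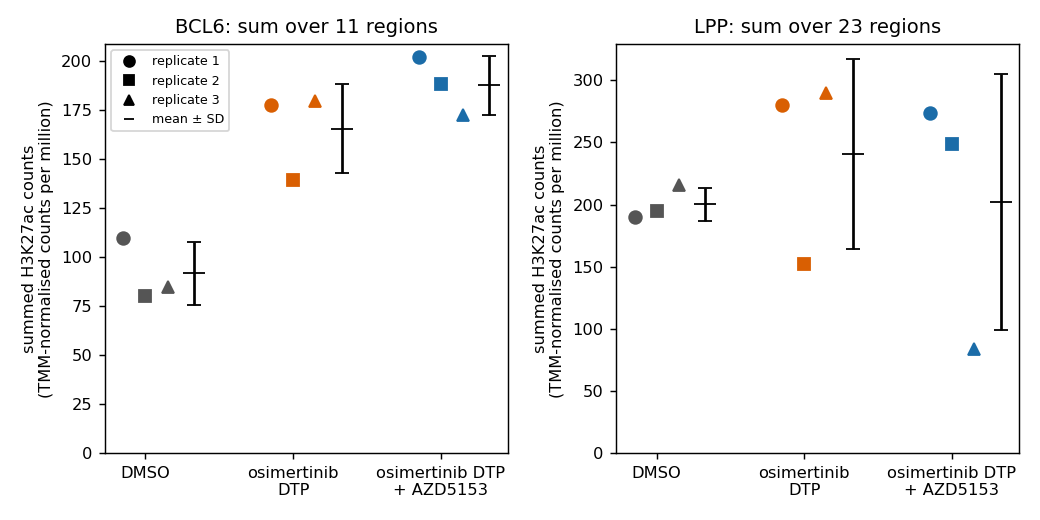
Summed H3K27ac counts of the BCL6 and LPP regions in TMM-normalised CPM (vertical axis from 0) for each library of the 3 groups, with the replicate given by the symbol and the group mean ± SD (n = 3) in black. For BCL6 all 6 treated libraries sit above the 3 DMSO libraries, whereas for LPP the groups overlap and combination replicate 3 lies lowest at 84.0.

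Region by region, the BCL6 members formed a single run of 12444 bp (chr3:187738416-187750859) that crosses the gene start, with 9 regions inside the gene or over its start and 2 upstream. In osimertinib DTP the log2 fold change over DMSO was above 0 at all 11 regions, from 0.36 to 2.26 with a median of 1.26, where the median over all 157919 tested regions was 0.15. In the combination it ran from 0.58 to 2.70 with a median of 1.42, against a median of 0.23 over all regions. All 11 stayed above 0 in both comparisons with DESeq2, with library-size scaling and with a loess offset. By edgeR's test over all tested regions 1 BCL6 region was called higher in osimertinib DTP, where 5.58% of all regions were called higher and 5.13% lower, and 4 were called higher in the combination, where the shares were 9.05% and 9.01%. None was called lower. CPM of the 3 osimertinib DTP libraries lay wholly above those of the 3 DMSO libraries at 10 BCL6 regions (20.2% of all tested regions), and those of the 3 combination libraries at 10 (14.4%). Per-region CPM are scaled over regions and are not on the scale of the gene sums. On the regional scale the 11 regions summed to 83.6 ± 12.2 CPM in DMSO, 172 ± 53.1 with osimertinib alone and 203 ± 26.1 in the combination. Osimertinib DTP replicate 2 was there the highest of its group (233 CPM against 146 and 136). By gene sums it was the lowest (139 CPM against 178 and 180), so spread and replicate order depend on the scaling.

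In the combination the 2 largest fold changes at BCL6 were upstream of the gene, in regions annotated as distal intergenic, and the farther one also had the largest in osimertinib DTP. Region chr3:187750358-187750859, 4633 bp upstream of the start that the deposited annotation uses, held 24, 62 and 43 counts in DMSO, 87, 260 and 175 in the osimertinib DTP libraries and 196, 275 and 168 in the combination. All treated libraries lay above the DMSO libraries. The input held 27 counts at its lower depth, against an input median of 10 over all regions. Scaled to its own total without TMM, the input stood at 14.4 CPM here. The H3K27ac level of the region was 4.26 ± 2.10 CPM in DMSO, 20.5 ± 14 with osimertinib alone and 27.8 ± 7.21 in the combination. The log2 fold change was 2.26 ± 0.63 (adjusted p = 0.0302) in osimertinib DTP and 2.70 ± 0.64 (adjusted p = 0.00922) in the combination. The first call ended in 5 of 9 leave-one-out fits (without DMSO replicate 1, 2 or 3 or osimertinib DTP replicate 2 or 3, adjusted p from 0.0685 to 0.136), and the second without DMSO replicate 1 or 3 (0.0555 and 0.0564). In the fit lacking combination replicate 3, the values were 2.26 (adjusted p = 0.00265) and 2.58 (adjusted p = 0.00123). A peak covered this region in 1 DMSO library and in all 3 libraries of each treated group.

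The adjacent region chr3:187749821-187750322 held 12, 18 and 15 counts in DMSO, 37, 31 and 61 in the osimertinib DTP libraries, and 111, 98 and 23 in the combination. Both treated groups lay above DMSO in CPM, and combination replicates 1 and 2 were the highest of all. The difference over DMSO was 1.65 ± 0.58 on the log2 scale in osimertinib DTP (adjusted p = 0.0762) and 2.60 ± 0.59 in the combination (adjusted p = 0.00731), the latter call ending without DMSO replicate 3 (adjusted p = 0.0506). With combination replicate 3 left out, both were called, at 1.64 (adjusted p = 0.00864) and 2.91 (adjusted p = 8.75e-05). No DMSO library had a peak here, while 2 osimertinib DTP and 3 combination libraries did. It was also the BCL6 region with the smallest p between the combination and osimertinib DTP, at a log2 fold change of 0.95 ± 0.55 (adjusted p = 1.0) and, without combination replicate 3, 1.27 ± 0.45 (adjusted p = 0.146), so no difference between the treated groups was called.

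Within the gene, a pair of regions 2118 and 2640 bp upstream of an inner BCL6 start rose in the combination. Region chr3:187740062-187740563 held 74, 54 and 37 counts in DMSO, 125, 155 and 93 in the osimertinib DTP libraries and 185, 130 and 101 in the combination. Its neighbour chr3:187740584-187741085 held 60, 36 and 25 counts in DMSO, 158, 92 and 88 in the osimertinib DTP libraries and 127, 87 and 66 in the combination. In CPM the groups of treated libraries did not overlap DMSO at either region. For the combination the log2 fold changes were 1.73 ± 0.55 (adjusted p = 0.0359) and 1.60 ± 0.54 (adjusted p = 0.0466), and for osimertinib DTP 1.42 ± 0.54 (adjusted p = 0.102) and 1.65 ± 0.54 (adjusted p = 0.0566). When combination replicate 3 was omitted, both regions were called in both comparisons, at 1.65 (adjusted p = 0.00972) and 1.54 (adjusted p = 0.0132) in the combination and 1.41 (adjusted p = 0.0194) and 1.64 (adjusted p = 0.00658) in osimertinib DTP. Both combination calls ended without any 1 of DMSO replicates 1 to 3, osimertinib DTP replicate 1 or combination replicates 1 and 2, and the second also without osimertinib DTP replicate 3, with adjusted p-values of 0.0528 to 0.246. Library-size scaling ended both as well (adjusted p = 0.0511 and 0.0967), and the second also ended with no filter on low counts (0.0511) and in a fit of the compared libraries alone (0.0677).

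The region over the BCL6 start itself, chr3:187745373-187745874, which holds the printed BCL6 promoter, had the highest mean count among the BCL6 regions and the smallest change of them in osimertinib DTP. It held 259, 331 and 241 counts in DMSO, 300, 348 and 282 in the osimertinib DTP libraries and 378, 415 and 200 in the combination. The log2 fold change over DMSO was 0.36 ± 0.48 (adjusted p = 0.703) in osimertinib DTP and 0.61 ± 0.48 (adjusted p = 0.415) in the combination. All 9 libraries had a peak over it, with fold enrichments of 14.2 to 42.0. Of the remaining 6 BCL6 regions none was called in either comparison, and their log2 fold changes were 0.53 to 1.28 in osimertinib DTP and 0.58 to 1.57 in the combination. Without combination replicate 3, 2 of them were called higher in osimertinib DTP, chr3:187741590-187742091 (adjusted p = 0.0296) and chr3:187742209-187742710 (adjusted p = 0.0403). In the combination that fit called the former (adjusted p = 0.0178) and chr3:187742828-187743329 (adjusted p = 0.0468).

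**Figure D2:**
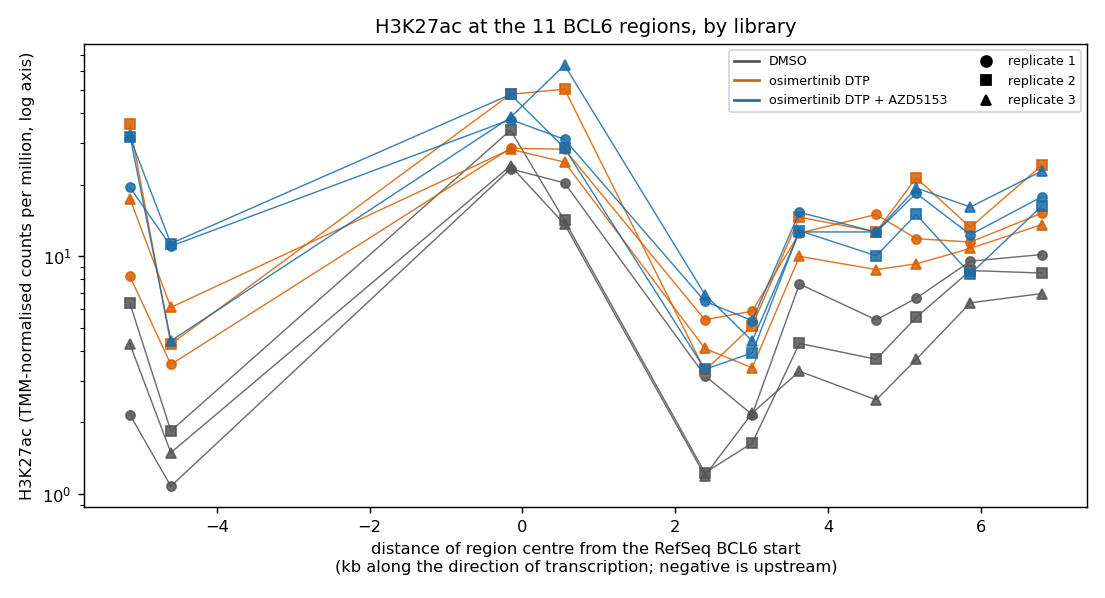
H3K27ac in TMM-normalised CPM (vertical log axis) at the 11 BCL6 regions against the distance of the region centre from the RefSeq BCL6 start in kb, 1 line per library coloured by group and marked by replicate. Upstream of the start, at the left, the DMSO libraries lie at 1.08 to 6.35 CPM and the treated libraries at 3.51 to 35.8 CPM, whereas over the start all 9 libraries lie between 23.3 and 47.9 CPM.

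LPP regions did not move one way. In osimertinib DTP 5 of 23 were called higher and none lower, where 5.58% of all tested regions were called higher and 5.13% lower. In the combination 3 were called higher and 6 lower, against 9.05% and 9.01% of all tested regions. Log2 fold changes over DMSO ran from -1.44 to 3.34 (median 0.21) in osimertinib DTP and from -2.45 to 3.10 (median 0.19) in the combination. CPM of osimertinib DTP lay wholly above DMSO at 10 LPP regions (20.2% of all tested regions) and wholly below at 6 (18.9%). CPM of the combination lay wholly above at 2 (14.4%) and wholly below at 6 (19%). Over both genes the calls split 6 higher to 0 lower in osimertinib DTP and 7 to 6 in the combination (10.7% and 18.1% of all regions called). The split was 8 to 1 and 13 to 6 with DESeq2 (17.7% and 24.8% of all regions called). It was 4 to 0 and 4 to 6 with library-size scaling (7.75% and 15.7%). With a loess offset it was 7 to 0 and 9 to 6 (12% and 19.8%). In the fit lacking combination replicate 3, it was 14 to 3 and 14 to 6, when 14.2% of all regions were called higher and 12.7% lower in osimertinib DTP and 18.4% and 17.3% in the combination.

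**Figure D3:**
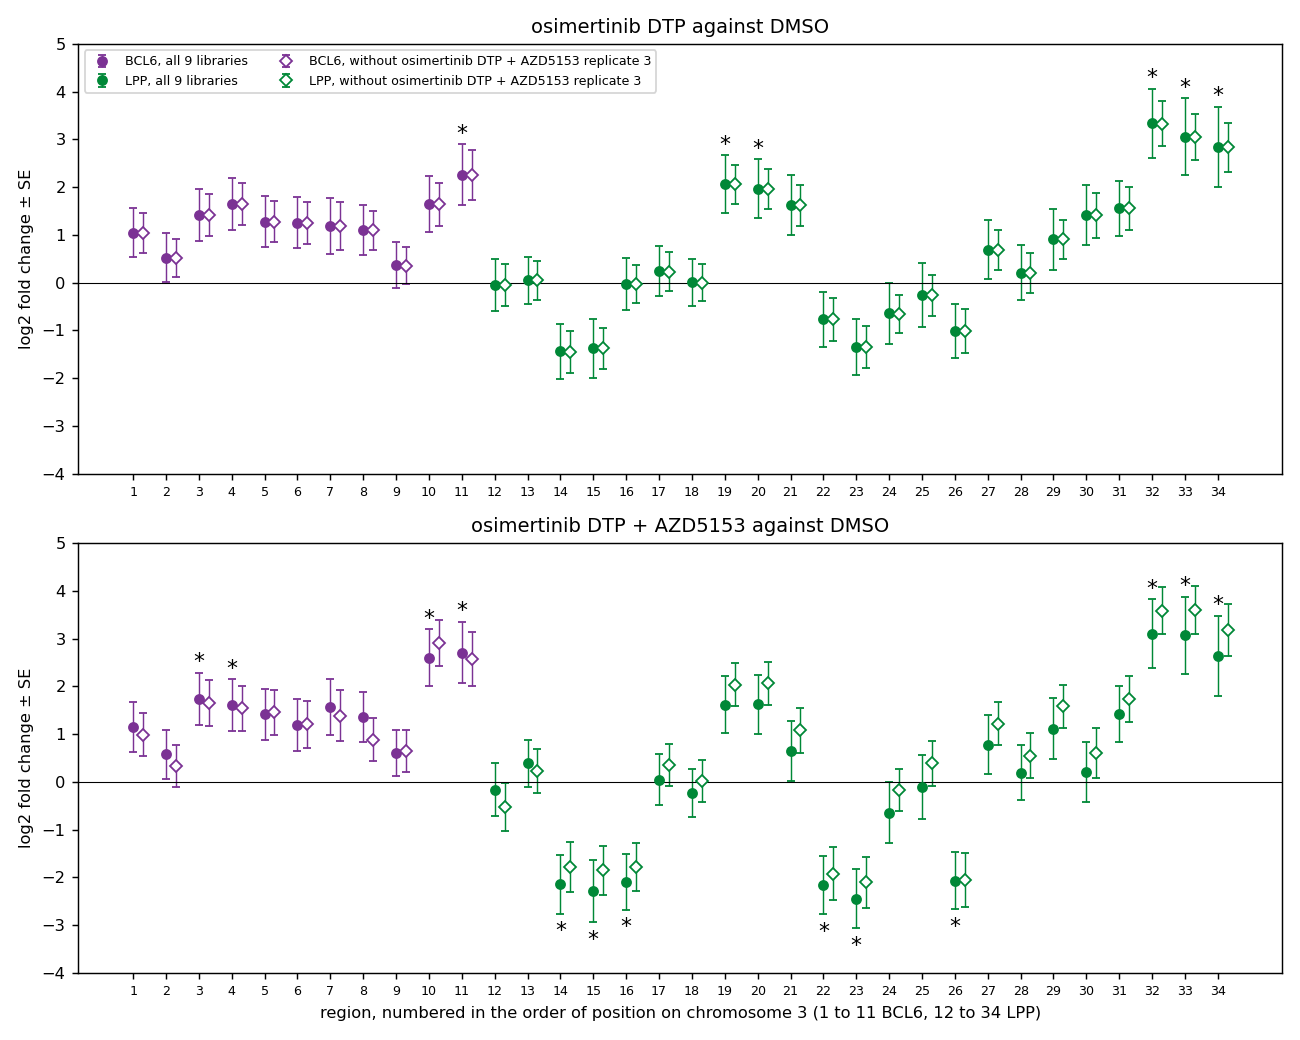
Log2 fold change over DMSO ± SE (vertical axis) of the 34 regions in their order on chromosome 3 (horizontal axis, BCL6 in purple and LPP in green) for osimertinib DTP (top) and osimertinib DTP + AZD5153 (bottom), with all 9 libraries (filled) and without combination replicate 3 (open). An asterisk marks an adjusted p under 0.05 with all libraries: 6 regions in the top panel and 13 in the bottom panel.

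The 2 member regions at the LPP start were not called in any comparison, with or without combination replicate 3. The RefSeq gene LPP-AS2 (chr3:188151206-188154088) overlaps this start, and 3 regions that are not members carry its symbol. Of these, 1 was called lower in the combination over DMSO (9.01% of all regions) and 0 were called in osimertinib DTP. Region chr3:188153317-188153818, 33 bp from the annotated start and sharing 171 bases with the printed LPP promoter, held 296, 493 and 354 counts in DMSO, 311, 412 and 302 in the osimertinib DTP libraries and 405, 415 and 309 in the combination. The groups overlapped, with 37.4 ± 12.1, 38.8 ± 15.5 and 49.1 ± 9.55 CPM. Its log2 fold change over DMSO was 0.05 ± 0.49 (adjusted p = 0.968) in osimertinib DTP and 0.39 ± 0.49 (adjusted p = 0.635) in the combination. The other region at the start, chr3:188152336-188152837, held 19 to 53 counts per library and changed by -0.05 in osimertinib DTP and -0.16 in the combination.

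Between 110 and 120 kb into LPP, 10 regions of intron 1 formed a block of 10599 bp (chr3:188262642-188273240) whose centre and edges moved apart. The summed block held 918, 967 and 914 counts in DMSO, 1258, 863 and 1135 in the osimertinib DTP libraries and 1127, 876 and 177 in the combination, and its log2 ratio over DMSO was 0.37 in osimertinib DTP and -0.14 in the combination (0.23 without combination replicate 3). The exact two-sided permutation test gave p = 0.1 for osimertinib DTP, the smallest that 3 against 3 libraries allow, and p = 1 for the combination. The sum hides opposite movements of its regions.

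In the right centre of this block, chr3:188270017-188270518 held 51, 53 and 43 counts in DMSO, 169, 170 and 205 in the osimertinib DTP libraries and 200, 169 and 22 in the combination. The next region, chr3:188270617-188271118, held 71, 55 and 43 counts in DMSO, 193, 190 and 193 in the osimertinib DTP libraries and 227, 201 and 22 in the combination. Osimertinib DTP and combination replicates 1 and 2 were above every DMSO library at both, and combination replicate 3 was not. The rise in osimertinib DTP was 2.06 ± 0.60 (adjusted p = 0.0367) and 1.96 ± 0.62 (adjusted p = 0.0497) on the log2 scale. Both calls ended without any 1 of the DMSO or osimertinib DTP replicates (adjusted p from 0.0602 to 0.222), the second also without combination replicate 1 (0.0583), with library-size scaling (0.0639) and with the replicate block (0.0518). In the combination they changed by 1.61 (adjusted p = 0.0689) and 1.62 (adjusted p = 0.0748), and without its replicate 3 by 2.04 (adjusted p = 0.00124) and 2.06 (adjusted p = 0.00117). That fit also called the next region, chr3:188271238-188271739, higher in osimertinib DTP (1.62, adjusted p = 0.00739, against 1.63 and 0.107 with all libraries).

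At the edges of the block H3K27ac was lower in the combination, with 5 regions called lower there: the outer pair on the left, the region next to them and the outer pair on the right. The rightmost, chr3:188272739-188273240, held 68, 111 and 82 counts in DMSO, 39, 13 and 45 in the osimertinib DTP libraries and 19, 18 and 3 in the combination. Every treated library lay below every DMSO library in CPM. The combination differed from DMSO by -2.45 ± 0.62 (adjusted p = 0.0128) on the log2 scale, a call that ended only without DMSO replicate 2 among the leave-one-out fits (adjusted p = 0.073). On the left, chr3:188263249-188263750 held 61, 74 and 76 counts in DMSO, 35, 15 and 25 in the osimertinib DTP libraries and 22, 14 and 1 in the combination, a change of -2.29 ± 0.65 (adjusted p = 0.0227). The leftmost region, chr3:188262642-188263143, held 51, 66 and 63, then 22, 15 and 23, then 18, 14 and 2 counts in the same order, a change of -2.15 ± 0.61 (adjusted p = 0.0215). In both left regions each treated library was below each DMSO library.

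Another edge region, chr3:188272225-188272726, changed by -2.16 ± 0.62 in the combination (adjusted p = 0.0223), with 77, 70 and 84 counts in DMSO, 51, 18 and 58 in the osimertinib DTP libraries and 30, 8 and 5 in the combination. The calls at this region and the 2 left ones ended in fits of the compared libraries alone (adjusted p from 0.0649 to 0.08) and without DMSO replicate 2 or 3 (adjusted p from 0.0713 to 0.0907), and that at chr3:188272225-188272726 also without DMSO replicate 1 (0.0514) or combination replicate 2 (0.0758). In osimertinib DTP the 4 outer regions changed by -0.77 to -1.44 and none was called (adjusted p from 0.122 to 0.448). With combination replicate 3 left out, 3 of these 4 were called lower in osimertinib DTP, the leftmost (adjusted p = 0.0165), its neighbour (0.0199) and the rightmost (0.026). All 3 DMSO libraries had a peak over the leftmost pair and no treated library did. When combination replicate 3 was omitted, the 5 edge regions stayed called lower in the combination, at -1.78 to -2.11 (adjusted p from 0.00415 to 0.01).

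The region next to the left pair, chr3:188265378-188265879, was called lower in the combination. It held 79, 72 and 91 counts in DMSO, 102, 39 and 80 in the osimertinib DTP libraries and 25, 18 and 4 in the combination. The 3 combination libraries were below all others, and DMSO and osimertinib DTP overlapped. Its log2 fold change was -0.028 ± 0.54 (adjusted p = 0.984) in osimertinib DTP over DMSO, -2.10 ± 0.58 (adjusted p = 0.0191) in the combination over DMSO and -2.07 ± 0.58 (adjusted p = 1.0) in the combination over osimertinib DTP. The second call ended without DMSO replicate 2 or 3 (adjusted p = 0.067 and 0.0844) and in a fit of the compared libraries alone (0.0629). The third, the direct test of the treated groups, had the smallest p among the LPP regions and was called only by voom with library quality weights (-1.87, adjusted p = 0.0254); without combination replicate 3 edgeR gave -1.75 (adjusted p = 0.0919).

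The block's regions with the highest counts were not called in either comparison with DMSO. Region chr3:188266860-188267361, the LPP region outside promoters with the highest mean count, held 221, 218 and 217 counts in DMSO, 278, 139 and 185 in the osimertinib DTP libraries and 233, 174 and 58 in the combination, changes of 0.00 ± 0.50 (adjusted p = 0.997) and -0.23 ± 0.50 (adjusted p = 0.802). Further along intron 1, chr3:188296383-188296884, chosen here after its values were seen, held 64, 54 and 87 counts in DMSO, 50, 10 and 36 in the osimertinib DTP libraries and 18, 12 and 8 in the combination, and was called lower in the combination (-2.07 ± 0.60, adjusted p = 0.0237, and -2.06, adjusted p = 0.00719, without combination replicate 3).

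**Figure D4:**
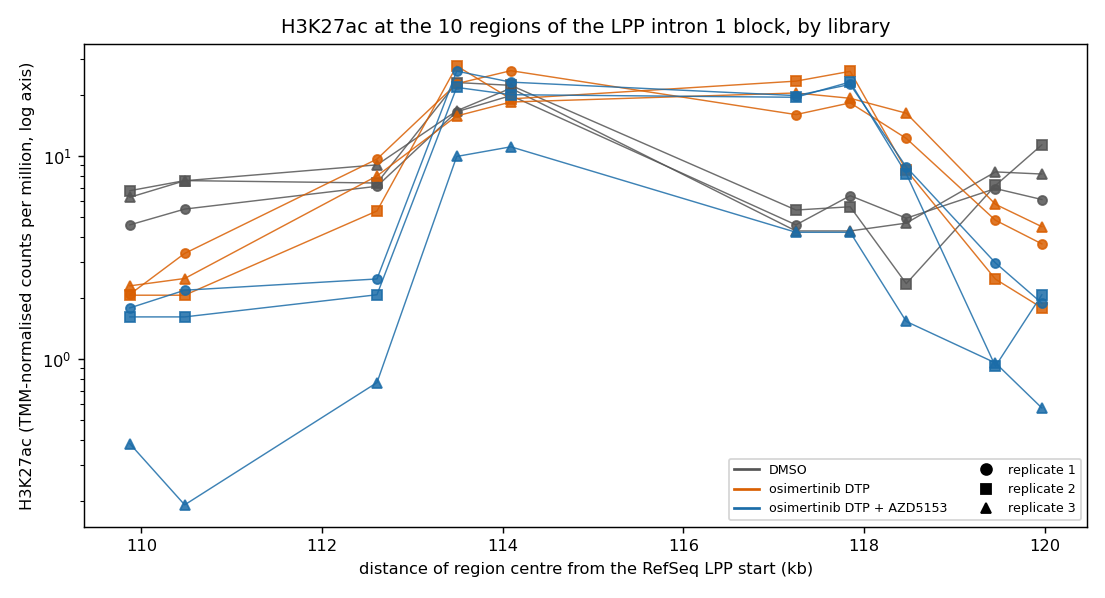
H3K27ac in TMM-normalised CPM (vertical log axis) at the 10 regions of the LPP intron 1 block against the distance of the region centre from the RefSeq LPP start in kb, 1 line per library coloured by group and marked by replicate. DMSO lines lie highest at both ends of the block and osimertinib DTP lines lie above DMSO near 117 and 118 kb, while combination replicate 3 runs below its fellow replicates at all but 1 of the 10 regions.

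Near the 3′ end of LPP, a block of 4 regions in intron 8 (chr3:188772648-188780955, 8308 bp) showed the largest rise among the members. It held 40, 41 and 44 counts in DMSO, 306, 168 and 226 in the osimertinib DTP libraries, and 351, 245 and 20 in the combination. Each osimertinib DTP library and combination replicates 1 and 2 were above all DMSO libraries, while combination replicate 3 lay within the DMSO range in CPM. Summed CPM were 4.06 ± 0.410 in DMSO, 24.9 ± 3.57 with osimertinib alone and 22.3 ± 16.3 in the combination (31.6 ± 4.67 without replicate 3). The log2 ratio over DMSO was 2.62 for osimertinib DTP (exact two-sided permutation p = 0.1, the smallest possible) and 2.46 for the combination (p = 0.3).

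The rise was called at 3 of the 4 regions in both comparisons. Region chr3:188776047-188776548 held 7, 6 and 9 counts in DMSO, 87, 51 and 67 in the osimertinib DTP libraries and 90, 74 and 5 in the combination. It rose by 3.34 ± 0.72 (adjusted p = 0.0097) in osimertinib DTP and by 3.10 ± 0.72 (adjusted p = 0.00828) in the combination on the log2 scale, and without combination replicate 3 by 3.33 (adjusted p = 2.73e-05) and 3.59 (adjusted p = 1.3e-05). The first call ended without DMSO replicate 2 (adjusted p = 0.0779) or 3 (0.0542), and the second without DMSO replicate 2 (0.0577). Beside it, chr3:188776653-188777154 held 9, 7 and 8 counts in DMSO, 83, 32 and 73 in the osimertinib DTP libraries and 112, 69 and 2 in the combination, and rose by 3.05 ± 0.81 (adjusted p = 0.0236) and 3.06 ± 0.81 (adjusted p = 0.0155). The last of the 3, chr3:188780454-188780955, held 12, 6 and 7 counts in DMSO, 89, 43 and 31 in the osimertinib DTP libraries and 89, 51 and 1 in the combination, and rose by 2.84 ± 0.84 (adjusted p = 0.0386) and 2.64 ± 0.84 (adjusted p = 0.0367).

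Without combination replicate 3 the latter 2 regions rose by 3.05 (adjusted p = 7.45e-05) and 2.83 (adjusted p = 0.000297) in osimertinib DTP and by 3.59 (adjusted p = 1.56e-05) and 3.17 (adjusted p = 0.000126) in the combination. With all libraries their calls were less firm. In osimertinib DTP both ended without any 1 of the DMSO or osimertinib DTP replicates (adjusted p from 0.0592 to 0.169). In the combination both ended without any DMSO replicate or combination replicate 1, and the last also without osimertinib DTP replicate 2 (adjusted p from 0.059 to 0.149). Library-size scaling ended both calls of the last region (0.066 and 0.0699), as did a test of annotated regions alone (0.0549 and 0.0564). Its combination call also ended with the replicate block (0.0757) and in a fit of the compared libraries alone (0.0843). No DMSO library and not combination replicate 3 had a peak over any region of the block, whereas each of the other 5 libraries did. The fourth region, chr3:188772648-188773149, held 12 to 22 counts in DMSO and 42 to 55 in osimertinib DTP and was not called (1.56, adjusted p = 0.0909), but was called higher without combination replicate 3 in osimertinib DTP (1.55, adjusted p = 0.0122) and in the combination (1.73, adjusted p = 0.00799).

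The 6 LPP members in no block and not named so far lay in introns 1, 2 and 5 and, for chr3:188760911-188761412, in what the annotation classes as a promoter of an inner start, and none was called. Over DMSO they changed by -0.65 to 1.42 in osimertinib DTP and by -0.64 to 1.11 in the combination. In the fit lacking combination replicate 3, chr3:188760911-188761412 was called higher in osimertinib DTP (1.41, adjusted p = 0.0277), and chr3:188348693-188349194 (1.22, adjusted p = 0.0394) and chr3:188593840-188594341 (1.58, adjusted p = 0.0082) in the combination.

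Between osimertinib DTP + AZD5153 and osimertinib DTP no BCL6 or LPP region was called by edgeR, as was the case for 0% of all tested regions in either direction, and no symbol by its summed counts (0%). At an unadjusted p under 0.05 there were 0 BCL6 and 2 LPP regions, and 7011 among all tested regions. DESeq2 called 0 of the 34 members, with 21 regions higher and 73 lower in all, and voom with library quality weights called 1 member. With combination replicate 3 left out, edgeR called 0 members, against 0.0637% of all regions higher and 0.0593% lower. BCL6 as a sum differed by 0.18 ± 0.21 (adjusted p = 0.981) on the log2 scale, and LPP by -0.25 ± 0.42 (adjusted p = 0.998), which turned to 0.066 ± 0.25 (adjusted p = 0.9) without that replicate.

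Combination replicate 3 departed from its group differently at the BCL6 regions, most of them classed as promoter, and at the LPP regions away from its start. It gave 0.0194% of its counts to the BCL6 regions, where the other 8 libraries gave 0.00791% to 0.0187%, and 0.0041% to the 21 LPP regions other than the 2 at its start, where the others gave 0.0152% to 0.0234%. At the 2 LPP promoter regions it gave 0.00538%, against 0.00357% to 0.00504% in the others, so there it was highest, as at BCL6. It had the lowest CPM of all libraries at 17 of these 21 LPP regions (81.0%), at none of the 2 LPP promoter regions and at none of the 11 BCL6 regions. Over the series it was the lowest at 41.0% of all annotated regions outside promoters and at 13.7% of promoter regions. Gene and region class cannot be told apart here. In its peak list 10 of 11 BCL6 regions and 4 of 23 LPP regions lay under a peak. Replicates 1 and 2 of the same group had peaks over 11 and 11 BCL6 regions and over 18 and 16 LPP regions.

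Counting members under a peak of at least 1 shared base gave 25, 26 and 19 regions in DMSO, 30, 29 and 32 in the osimertinib DTP libraries and 29, 27 and 14 in the combination. Means were 23.3 ± 3.79, 30.3 ± 1.53 and 23.3 ± 8.14 (SD, n = 3 each). Osimertinib DTP lay above DMSO without overlap (difference 7 regions, exact two-sided permutation p = 0.1, the smallest that this design allows). The share of all counted regions under a peak is not given here, so whether this difference is particular to these genes was not tested. Peaks were called by the authors in each library on its own, and the number of peaks in a list was 54188 to 70227.

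The window from 200 kb before BCL6 to 200 kb beyond LPP held 109 counted regions, of which 75 were not members and 56 had no annotation. Over all tested regions 5.58% were called higher and 5.13% lower in osimertinib DTP, and 9.05% and 9.01% in the combination. Without combination replicate 3 the shares were 14.2% and 12.7%, and 18.4% and 17.3%. Beyond the 3′ end of BCL6, 3 of 7 tested regions were called higher in osimertinib DTP and 4 in the combination, and 5 and 6 without combination replicate 3. One of them, chosen here after its values were seen, was chr3:187567894-187568395, 177 kb from the BCL6 start, with 4, 6 and 2 counts in DMSO, 221, 205 and 279 in the osimertinib DTP libraries and 444, 404 and 34 in the combination. Its log2 fold change over DMSO was 5.99 ± 0.82 (adjusted p = 0.00273) in osimertinib DTP and 6.33 ± 0.83 (adjusted p = 0.00114) in the combination, and all 6 treated libraries lay above all DMSO libraries. When combination replicate 3 was omitted, the values were 5.99 and 6.81. A neighbour at chr3:187566848-187567349 went from 3, 6 and 1 counts in DMSO to 79, 75 and 125 in the osimertinib DTP libraries and 165, 171 and 34 in the combination. The deposited annotation gives these regions no gene. Between BCL6 and LPP, 8 regions were not members, and 0 were called in osimertinib DTP and 1 was called lower in the combination. Without combination replicate 3 the calls were 1 lower in osimertinib DTP and 1 higher and 1 lower in the combination.

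Within LPP lay 50 further regions that carried another symbol or none. Of these, 5 were called higher in osimertinib DTP (5.58% of all regions), and 9 higher and 2 lower in the combination (9.05% and 9.01%). In the fit lacking combination replicate 3, these were 15 higher and 3 lower (14.2% and 12.7% of all regions), and 20 higher and 3 lower (18.4% and 17.3%). Of the 50, 8 were assigned to MIR28, and 4 were called higher in osimertinib DTP and 5 in the combination (6 and 6 without that library). The strongest, chr3:188679319-188679820, held 8, 10 and 13 counts in DMSO, 39, 174 and 177 in the osimertinib DTP libraries and 76, 151 and 42 in the combination, a log2 fold change of 3.88 ± 0.73 (adjusted p = 0.00539) and 3.43 ± 0.72 (adjusted p = 0.00501), and 3.88 and 3.60 without combination replicate 3. MIR28 encodes miR-28, a small RNA that guides silencing of matching transcripts through its seed, and its 3p arm (RefSeq, chr3:188688834-188688855) is shown, with the seed at bases 2 to 8 in capitals, to name the product of the locus that carries these regions.
hsa-miR-28-3p: cACUAGAUugugagcuccugga

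Beyond the 3′ end of LPP, 1 of 9 regions was called lower in osimertinib DTP (5.13% of all regions) and 2 in the combination (9.01%), both of the latter assigned to TPRG1. With combination replicate 3 left out, there were 5 called lower in each comparison (12.7% and 17.3% of all regions). Summed over the 8 MIR28 regions, the log2 fold change was 1.68 ± 0.64 in osimertinib DTP (adjusted p = 0.136) and 1.43 ± 0.64 in the combination (adjusted p = 0.158). When combination replicate 3 was omitted, both were called, at 1.72 ± 0.39 (adjusted p = 0.00952) and 1.89 ± 0.42 (adjusted p = 0.00742).

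**Figure D5:**
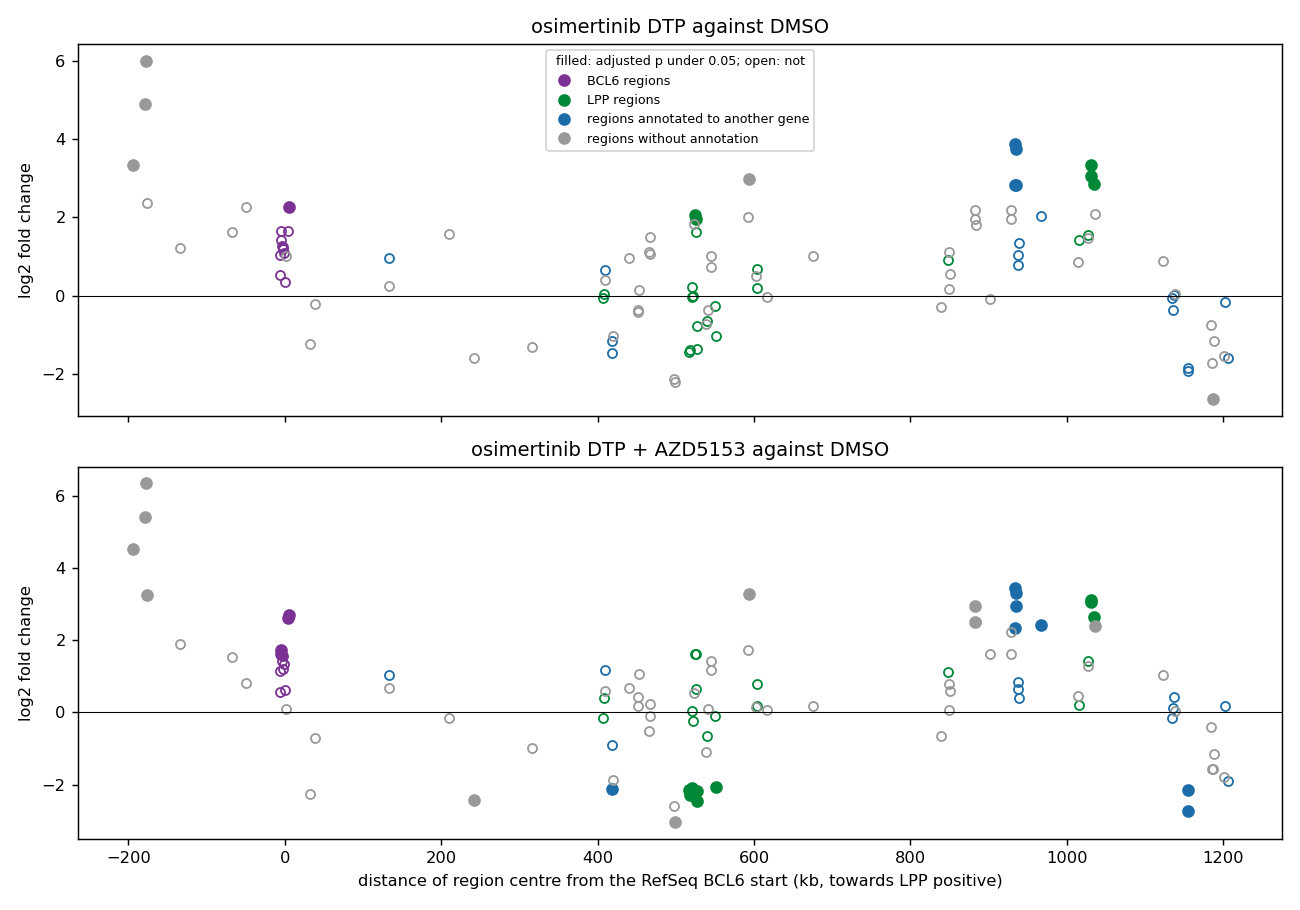
Log2 fold change over DMSO (vertical axis) of all tested regions in the window against the distance of the region centre from the RefSeq BCL6 start in kb (LPP lies to the right), for osimertinib DTP (top) and osimertinib DTP + AZD5153 (bottom). Filled points have an adjusted p under 0.05; the highest lie left of BCL6 at 5.99 and 6.33.

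Genes that work with BCL6 or LPP were read from lists, by the edgeR test on regions and on summed counts. Of 89 tested regions of 11 BCL6 corepressors and partners, 4 were called higher and 8 lower in osimertinib DTP (13.5%) and 7 higher and 8 lower in the combination (16.9%), where 10.7% and 18.1% of all tested regions were called. HDAC4, a class IIa histone deacetylase, fell by 1.49 on the log2 scale in osimertinib DTP (adjusted p = 0.00966) and ZBTB16, a BTB zinc finger repressor, rose by 2.92 ± 0.71 (adjusted p = 0.0302). The other 9, among them NCOR1 and BCOR, were not called by their sums with all libraries. Without combination replicate 3, HDAC4 and ZBTB16 were called in both comparisons, and BCOR (-0.86, adjusted p = 0.0419), HDAC7 (0.58, adjusted p = 0.0401) and KDM1A (0.80, adjusted p = 0.031) in the combination. Of 60 tested regions of 14 genes that BCL6 is known to repress or, as FOXO3, that regulate it, 1 was called higher and 7 lower in osimertinib DTP (13.3%) and 3 higher and 9 lower in the combination (20%).

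BCL2, the anti-apoptotic gene, rose by 1.85 ± 0.50 (adjusted p = 0.0449) in osimertinib DTP and by 3.00 ± 0.52 (adjusted p = 0.00592) in the combination. CXCR4, a chemokine receptor gene, changed by -2.62 ± 0.59 (adjusted p = 0.0236) and -3.42 ± 0.61 (adjusted p = 0.00686). PRDM1, the plasma cell repressor, was not called by its sum (adjusted p = 0.413 in osimertinib DTP). With all libraries 1 of the 14 symbols was called higher and 1 lower in each comparison. In the fit lacking combination replicate 3, there were 2 higher and 3 lower in osimertinib DTP, and 2 higher and 2 lower in the combination, with BCL2 and CXCR4 called in both. CCND2 and GPR183 had no annotated region.

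Among 11 zyxin family members and LPP partners with regions, 10 of 211 regions were called higher and 10 lower in osimertinib DTP (9.48%), and 29 higher and 10 lower in the combination (18.5%). Of all tested regions 10.7% and 18.1% were called in these comparisons, which are also the shares for the neighbours below. By summed counts over all libraries 1 symbol was called, AJUBA, a LIM protein of cell junctions, in the combination (0.87 ± 0.24, adjusted p = 0.032). With combination replicate 3 left out, AJUBA was called in osimertinib DTP (0.80, adjusted p = 0.0156) and in the combination (0.84, adjusted p = 0.0161), and PALLD (1.21, adjusted p = 0.00873) and ENAH (0.76, adjusted p = 0.0224) in the combination. PALLD, an actin-bundling protein, held 17 of the 29 higher regions of the combination. Neighbours on 3q27 to 3q28 had 133 tested regions in 12 genes, with 7 called higher and 13 lower in osimertinib DTP (15%) and 15 and 24 in the combination (29.3%). By summed counts CLDN1, a tight junction gene, rose in the combination by 1.91 ± 0.41 (adjusted p = 0.0127), and ST6GAL1, a sialyltransferase gene, changed by -0.95 ± 0.28 (adjusted p = 0.0456). When combination replicate 3 was omitted, the neighbours had 2 symbols called higher and 1 lower in osimertinib DTP and 4 and 1 in the combination, CLDN1 in both (1.45, adjusted p = 0.00114, and 2.26, adjusted p = 0.000215) and ST6GAL1 in the combination (-1.11, adjusted p = 0.0136). P3H2, a collagen prolyl hydroxylase gene, held 10 of the 13 and 15 of the 24 lower regions. Between the treated groups 0 regions of any list were called.

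Over the 9 libraries the summed log2 CPM of BCL6 and LPP had a Pearson's r of 0.146, given as a description. This value includes combination replicate 3, which had 172 CPM at BCL6 and the lowest LPP level, 84.0 CPM. The correlation without that library was not computed, so whether the 2 genes follow each other in the others was not tested. The symbols with at least 5 regions most like BCL6 were FAM160B1 (r = 0.997), ACTN1-AS1 (0.994), RPS27L (0.988), CDC42BPA (0.987) and AKIP1 (0.987), of 4511 compared. Those most like LPP were METTL8 (0.991), SLC4A1AP (0.99), IGSF23 (0.984), MYO18B (0.982) and LEPROT (0.981). The 9 points share 3 groups and combination replicate 3, so the values describe these libraries only.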

How the data were processed

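H3K27ac ChIP-seq of H1975 was analysed in 9 libraries with 1 pooled input. The authors deposited raw counts per region, for all and for annotated regions, and 1 peak list per library with fold enrichment as a ratio and q as −log10 values. The submitters' processing notes name BWA 0.7.17, MACS2 2.2.6, featureCounts 2.0.0, ChIPseeker 1.29.1 and hg38, and duplicate handling was not given in the sources used here. Groups came from sample titles. Counts were tested with edgeR 4.0.16 in R 4.3.3 (filterByExpr with a minimum count of 10, TMM, robust quasi-likelihood) in 1 fit of all 9 libraries, and p-values were adjusted with Benjamini-Hochberg at 0.05 over 157919 regions or 15633 symbols. Members and gene lists were chosen with earlier results of these data known. Regions named per gene were the promoter region nearest a start and that of highest mean count, the highest of other classes, up to 5 called each way per comparison (or the smallest p), and blocks of at least 3 regions with gaps of at most 5000 bp; others are said to be chosen after their values were seen. CPM of regions and of gene sums have separate TMM factors. The SE of an edgeR log2 fold change was derived as its absolute value divided by the square root of the quasi-likelihood F statistic. Alternatives were DESeq2 1.42.0, voom (limma 3.58.1), other scalings, filters and samples, and the replicate number as a block. Same-numbered replicates of DMSO and osimertinib DTP deviated together (r = 0.341 to 0.368 in all 3 pairs), and those of the combination did not in every pair (-0.27 to 0.549). Replicates of a group differed beyond sampling noise in all 9 pairs (chi-square per degree of freedom 4.16 to 26.8). Scripts were tested on simulated data. All comparisons with DMSO share the same controls. Depth was 6263443 to 10463351 counts per library.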

Additional observations from a re-analysis of the deposited data

How the results depend on the processing

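Called members were 6 in osimertinib DTP and 13 in the combination over DMSO, when 10.7% and 18.1% of all regions were called. They were 17 and 5 in fits of the compared libraries alone, and 1 and 3 at an adjusted p under 0.01. With voom quality weights they were 21 and 23 (and 1 between treated groups), when voom called 31.8%, 48.7% and 3.18% of all regions. Leaving out 1 library at a time gave 0 to 17 and 2 to 20. The highest were without combination replicate 3, when 26.8% and 35.7% of all regions were called. For the fits of the compared libraries alone, the stricter threshold and the other left-out libraries, shares over all regions are not given here. Summed BCL6 counts had log2 fold changes of 0.79 to 1.00 and 0.96 to 1.18 in those fits, and 0.86 (adjusted p = 0.0546) in osimertinib DTP with the replicate block. For LPP in the combination over DMSO the value was -0.036 with library-size scaling, -0.089 with a loess offset and -0.043 with the replicate block, and -0.27 to 0.37 with 1 library left out; over osimertinib DTP it was -0.53 to 0.066 there. Regions under a peak averaged 18 in DMSO and 25.3 in osimertinib DTP with −log10 q of at least 10, and 28.7 in osimertinib DTP with the stricter overlap of at least 50% of a region. The cause of these changes was not tested, except that leaving out a library leaves fewer samples. At the named regions, 252 alternative values kept direction and side of the threshold, 85 lost the call, 1 gained it and 0 turned direction. The replicate block ended the calls of LPP regions chr3:188270617-188271118 in osimertinib DTP and chr3:188780454-188780955 in the combination (2.23, adjusted p = 0.0757), and no other named call. With 3 libraries a group no exact permutation test can go below 0.1. DMSO counts of 6 to 12 limit the fold changes in intron 8.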
